A study of Sus scrofa with 4 samples.

Results

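The SLC25 genes encode the mitochondrial carrier family, and 43 of them were followed through the differentiation of pig subcutaneous preadipocytes. They were chosen by name, as protein-coding genes with the symbol SLC25A followed by a number, and they make up 43 of 16192 protein-coding genes and of 31567 features measured. The rule itself uses no measured value. The cells came from Chinese Erhualian pigs, male piglets a few days old, and were grown to confluence (D0) before a cocktail of dexamethasone, isobutylmethylxanthine and insulin was given until D2. Medium with insulin was given from D2 to D4 and growth medium after that, and RNA was taken at D0, D2, D4 and D8. For each stage, RNA of 3 individuals was mixed in equal amounts into 1 library, so D0, D2, D4 and D8 are 1 library each, no spread between animals can be given, a difference between stages cannot be told apart from a difference between 2 libraries, and none was tested. D0 is the only undifferentiated control, and it differs from the later stages both in exposure to the cocktail and in time in culture.

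Mitochondrial carriers are small proteins of the inner membrane that exchange solutes between the cytosol and the matrix. The best known of them bring phosphate and ADP to the ATP synthase and return ATP, export citrate as the carbon source of fatty acid synthesis, and bring in amino acids, nucleotides, cofactors and iron. A few lie elsewhere, such as SLC25A17 in peroxisomes and SLC25A46 in the outer membrane. In fat cells the family is best known for the citrate carrier, which feeds lipogenesis, and for the uncoupling protein of brown fat, which has a symbol of its own and is not analysed here.

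Levels are FPKM, fragments scaled by gene length and by the fragments of the library, as deposited. The libraries held 54128151 to 75387428 fragments. A gene was reliably expressed with FPKM of 1 or more in 3 or all of the 4 libraries, which held for 32 of the 43 carriers and for 9191 protein-coding genes, the background below. It was called upregulated or downregulated when the ratio of FPKM + 0.01 between 2 libraries was at least 2. Intervals given with a ratio are 95% intervals of its log2 value and cover counting error only, not the spread between animals or cultures. Across the reliably expressed carriers a value rested on at least 116 and up to 59153 reads. The summed FPKM of 6 adipocyte markers was 104 on D0, 369 on D2, 1533 on D4 and 2013 on D8, while 7 fibroblast and stromal markers were all above 1 FPKM in every library, with sums of 3104 to 5650. In such bulk RNA, fewer cells of a type and less RNA per cell cannot be told apart.

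Phosphate and ADP/ATP transport took most of the family's RNA. SLC25A3, the phosphate carrier that supplies the ATP synthase (chr5:85284405-85292336 in Sscrofa11.1, minus strand), had FPKM of 423 on D0, 461 on D2, 529 on D4 and 468 on D8. SLC25A6, an ADP/ATP carrier on an unplaced scaffold, had 254 on D0, 403 on D2, 586 on D4 and 429 on D8. The family summed to 1063 FPKM on D0, 1241 on D2, 1580 on D4 and 1296 on D8, and both genes together held 63.7% to 70.6% of it. In reads, the family took 0.192% of all fragments on D0, 0.222% on D2, 0.270% on D4 and 0.225% on D8. Without SLC25A3 and SLC25A6 the sum was 385, 377, 464 and 399 FPKM in the same order. SLC25A6 stood below SLC25A3 at D0, D2 and D8 and above it at D4, where their intervals were 581 to 591 and 525 to 534 FPKM. The other reliably expressed carriers were far lower: besides these, SLC25A4, SLC25A5, SLC25A17, SLC25A24 and SLC25A36 had a mean of at least 20 FPKM, 13 of the 32 had a mean under 5, and the median of the 32 was 8.24, 7.52, 7.49 and 8.27 FPKM from D0 to D8.

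**Figure D1:**
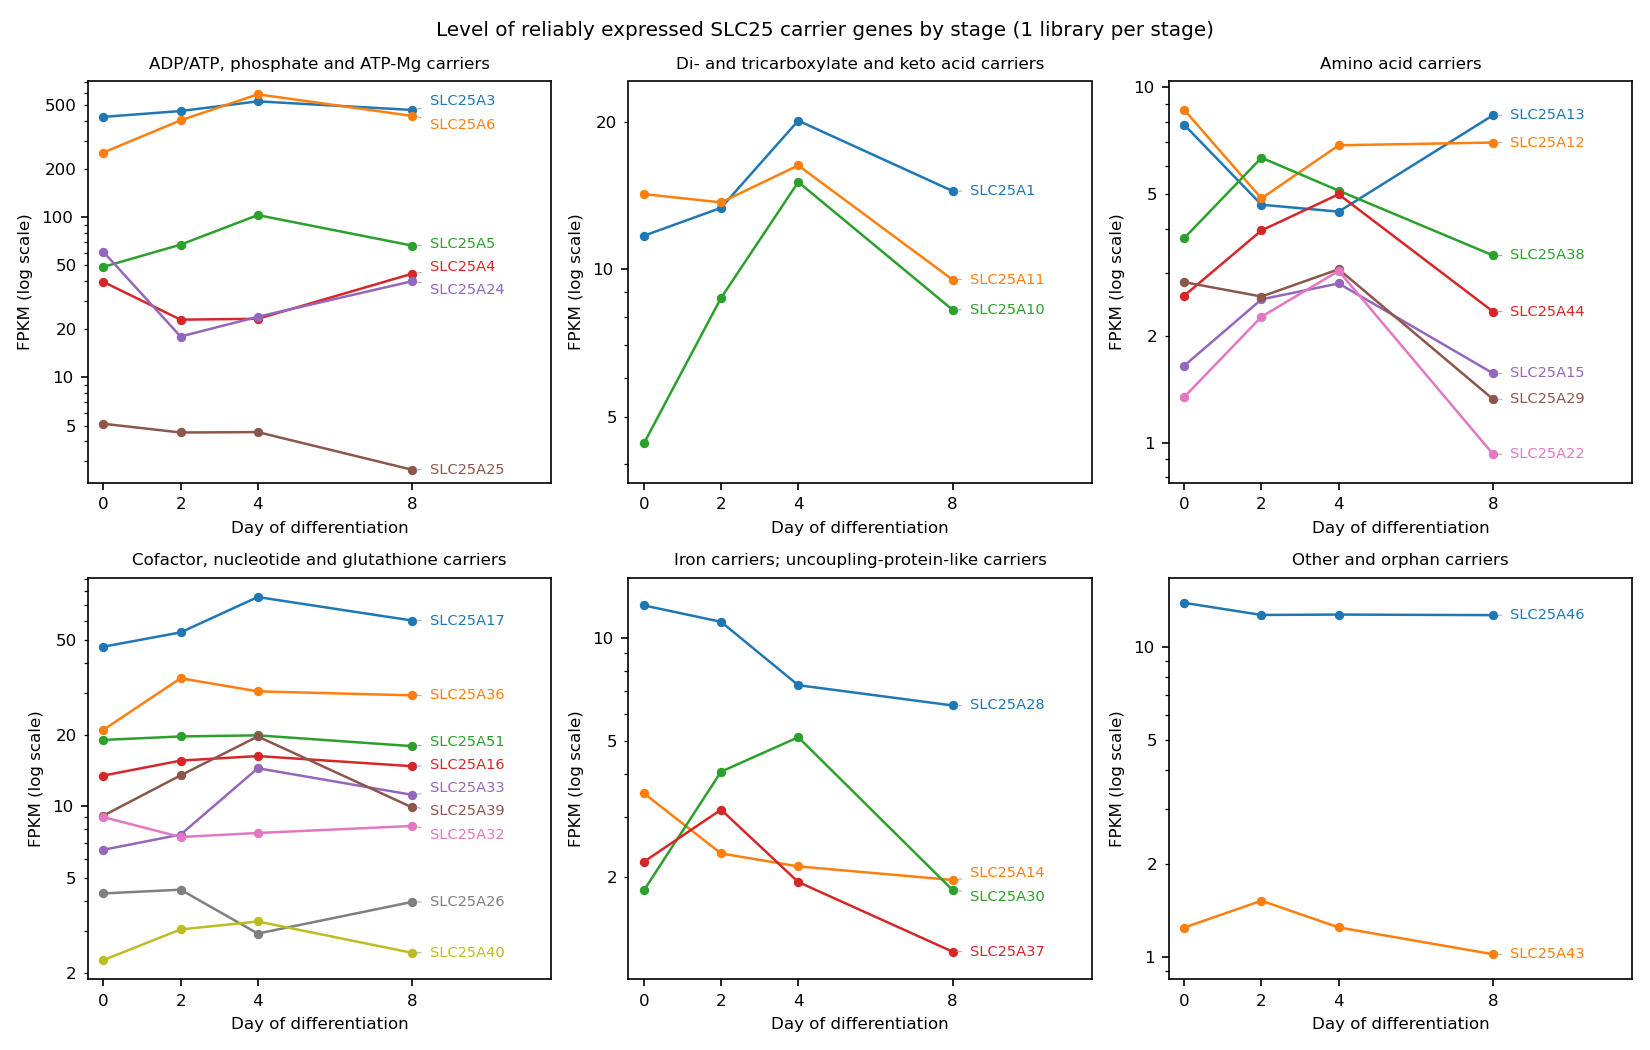
FPKM (log scale) of 31 of the 32 reliably expressed carriers against day of differentiation, 1 point per library, in panels by transported solute. SLC25A3 and SLC25A6 lie at 254 FPKM or higher throughout, SLC25A24 and SLC25A4 dip at D2 and D4, and SLC25A10 climbs from 4.41 at D0 to 15.1 at D4.

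On the deposited FPKM scale, most carriers reached their highest level at D4. Of the 32, 17 (53.1%) were highest at D4, 7 (21.9%) at D0, 6 (18.8%) at D2 and 2 (6.25%) at D8, against 37.3%, 36.5%, 16.7% and 9.51% of the background. These counts were not recomputed with other scalings. Scaling the libraries by the median ratio of genes (median-ratio scaling) raised log2 ratios in D8 vs D4 by 0.21. That is more than the drops of SLC25A3 (−0.18), SLC25A16 (−0.14) and SLC25A51 (−0.15). These would then not be highest at D4, and D4 would no longer hold most carriers. None was higher at each later stage than at the one before (background 1.84%), and SLC25A14 and SLC25A28 were lower at each later stage (background 4.01%), although for SLC25A14 the intervals of D4 vs D2 and D8 vs D4 both included 0. With median-ratio scaling neither would be lower at D8 than at D4, since their log2 ratios there were −0.13 and −0.20. The levels at D2 and D4 were both above those at D0 and D8 for 13 carriers (40.6%, background 36.4%) and both below them for 5 (15.6%, background 24.2%). The 5 were SLC25A4, SLC25A12, SLC25A13, SLC25A24 and SLC25A32. Some of these placements lay within counting error. Intervals included 0 for SLC25A43, of the 13, in D4 vs D0 (−0.27 to 0.27). In D8 vs D4 they did so for SLC25A12 (−0.08 to 0.13) and SLC25A32 (−0.02 to 0.22). The ratio of the highest to the lowest library had a median of 1.83 over the carriers and 1.64 over the background.

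Over the 5 comparisons together, the share of carriers past 2-fold lay near that of other mRNAs. In D2 vs D0, 1 of the 32 was upregulated and 1 downregulated, where 16.8% of the background was called, 6.67% upregulated and 10.1% downregulated. In D4 vs D2 none of the 32 reached 2-fold, against 5.08% of the background, 4.24% upregulated and 0.838% downregulated. In D8 vs D4 none was upregulated and 4 were downregulated (12.5%), against 14.5% of the background, 4.43% upregulated and 10.1% downregulated. In D4 vs D0, 7 were upregulated and 1 downregulated, 8 of 32, against 19.2% of the background, 10.4% upregulated and 8.81% downregulated. In D8 vs D0, 1 was downregulated, against 7.28% of the background, 3.6% upregulated and 3.68% downregulated. The split between directions depended on the scaling. With median-ratio scaling it became 2 up and 1 down in D2 vs D0, 2 up and 2 down in D8 vs D4, and 1 up and 0 down in D8 vs D0. In at least 1 of the 5 comparisons, which share libraries, 10 carriers (31.3%) and 2747 of 9191 mRNAs (29.9%) were called.

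The medians of the log2 ratios moved little. They were 0.19 over the carriers and −0.03 over the background in D2 vs D0, 0.13 and 0.09 in D4 vs D2, and 0.23 and 0.06 in D4 vs D0. In D8 vs D4 they were −0.35 and −0.21, and 25 of the 32 carriers were lower at D8. The share that was higher at D8 was 21.9% of the carriers and 35.1% of the background. With median-ratio scaling fewer carriers would be lower, since small drops such as those of SLC25A36 (−0.06) and SLC25A46 (−0.01) would change sign. In D8 vs D0 they were −0.08 and −0.18, a sign that turned to 0.08 over the carriers when the libraries were scaled by the median ratio of genes and to 0.03 when they were scaled by the reads of protein-coding genes. Median-ratio scaling moved log2 ratios by 0.21 in D8 vs D4 and 0.16 in D8 vs D0. Relative to the background median, the carriers stood 0.22 higher in D2 vs D0, 0.04 higher in D4 vs D2, 0.17 higher in D4 vs D0 and 0.10 higher in D8 vs D0, and in D8 vs D4 the difference was −0.14.

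**Figure D2:**
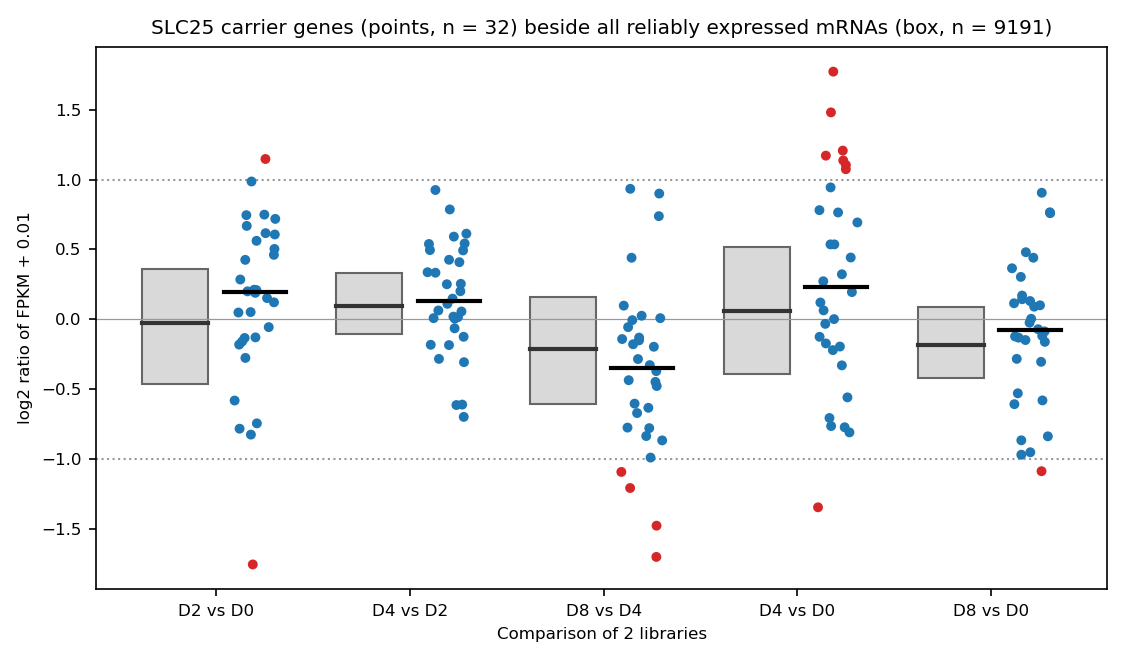
log2 ratios of the 32 reliably expressed carriers (points, red from 2-fold on, black line at the median) in each comparison beside the middle 50% of the 9191 reliably expressed mRNAs (box, line at the median). In D4 vs D0, 7 red points lie above and 1 below the dotted 2-fold lines, and in D4 vs D2 all points lie between the lines.

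The ADP/ATP carriers exchange matrix ATP for cytosolic ADP, and their genes did not move together. SLC25A5 (chrX:97919295-97922245, plus strand), the isoform best known from growing cells, had FPKM of 49.0 on D0, 67.5 on D2, 103 on D4 and 66.5 on D8, and was upregulated 2.11-fold in D4 vs D0 (log2 ratio 1.07, interval 1.02 to 1.12). SLC25A6 was upregulated 2.31-fold in D4 vs D0 (log2 ratio 1.21, interval 1.19 to 1.23). SLC25A4 (chr15:46193498-46197989, plus strand), the isoform best known from heart and skeletal muscle, went the other way, with 39.5 on D0, 22.9 on D2, 23.2 on D4 and 44.4 on D8. Its log2 ratios of −0.78 in D2 vs D0 (interval −0.86 to −0.71) and 0.93 in D8 vs D4 (interval 0.86 to 1.01) were under 2-fold. Of the summed FPKM of the 3 genes, 342 on D0, 494 on D2, 712 on D4 and 540 on D8, SLC25A4 held 11.5%, 4.65%, 3.26% and 8.22%. SLC25A5 kept 12.3% to 14.5% of the sum, and SLC25A6 held 74.1% at D0 and 79.5% to 82.2% later. These genes are close copies of each other, and how the authors counted reads that fit more than 1 of them is not given in the sources used here, so their split is uncertain.

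**Figure D3:**
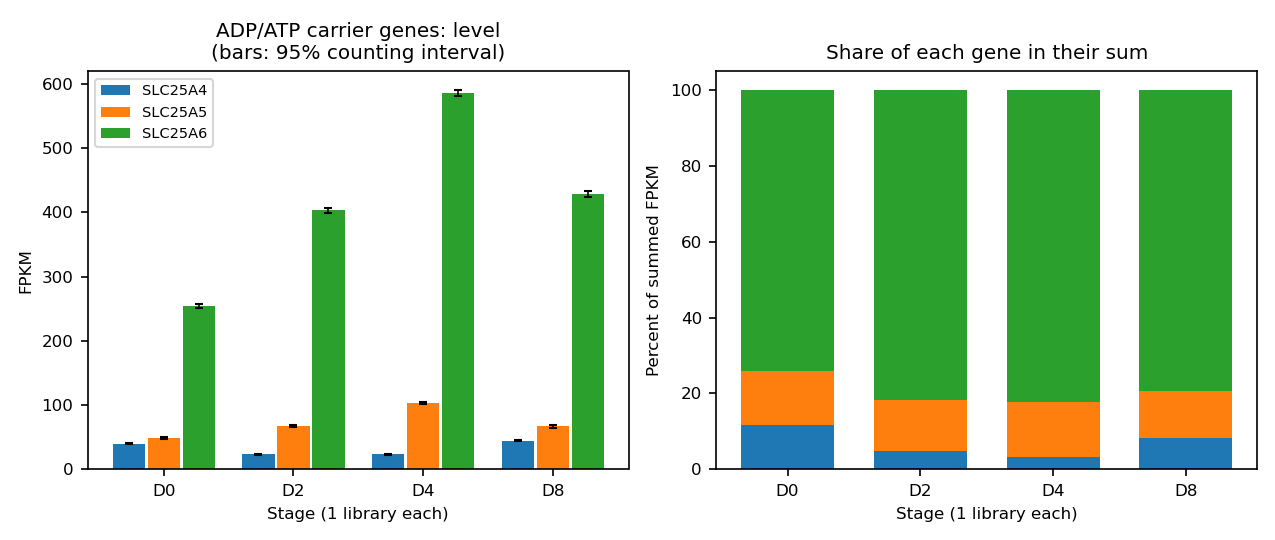
Left, FPKM of SLC25A4, SLC25A5 and SLC25A6 by stage, 1 library each, with error bars for the 95% counting interval. Right, the percent of their summed FPKM held by each gene: SLC25A6 is the main part of every bar, and SLC25A4 shrinks from 11.5% at D0 to 3.26% at D4 and is 8.22% at D8.

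The ATP-Mg/phosphate carriers, which set the adenine nucleotide content of the matrix, were led by the gene that fell furthest in the family. SLC25A24 (chr4:111580186-111632390, plus strand) had FPKM of 60.8 on D0, 18.0 on D2, 23.9 on D4 and 39.9 on D8. At D0 it came next after SLC25A3 and SLC25A6 in the family, and at D2 it stood below SLC25A4, SLC25A5, SLC25A17, SLC25A36 and SLC25A51 as well. It was downregulated 3.37-fold in D2 vs D0 (log2 ratio −1.75, interval −1.84 to −1.67) and 2.54-fold in D4 vs D0 (log2 ratio −1.35, interval −1.41 to −1.28), and in D8 vs D0 the log2 ratio was −0.61. Its paralog SLC25A25 had 5.14, 4.53, 4.56 and 2.65 FPKM from D0 to D8, lowest at D8. SLC25A23 stayed under 1 FPKM, with 0.930 at D0 and 0.454 at D8, and SLC25A41, its neighbour 1932 bases away on chromosome 2, had at most 8 reads in a library. SLC25A24 made up 90.9% of the summed FPKM of the 4 genes on D0, 76.8% on D2, 82.3% on D4 and 92.7% on D8.

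SLC25A4, SLC25A24 and, below, SLC25A13 were high at D0, low at D2 and D4 and higher again at D8, a dip that 24.2% of the background had too, and one group of marker genes had it as well. The summed FPKM of the smooth muscle markers ACTA2, CNN1 and MYH11 was 3002 on D0, 329 on D2, 228 on D4 and 2787 on D8, with 2 of the 3 above 1 FPKM in every library. The 4 skeletal muscle markers measured, DES among them, summed to 436, 37.7, 4.14 and 35.7, of which 1 was above 1 FPKM in any library, and MYOG was at 0 at D0, D4 and D8. The part of these markers in the levels of the 3 carriers was not tested.

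The 3 reliably expressed carriers of di- and tricarboxylates were highest at D4. SLC25A10 (chr12:1191242-1197439, minus strand), the dicarboxylate carrier that exchanges malate and succinate for phosphate, had the largest rise of the reliably expressed carriers, with FPKM of 4.41 on D0, 8.74 on D2, 15.1 on D4 and 8.27 on D8. It was upregulated 3.42-fold in D4 vs D0 (log2 ratio 1.77, interval 1.65 to 1.90), and lay just under 2-fold in D2 vs D0 (log2 ratio 0.99, interval 0.84 to 1.13). SLC25A1 (chr14:50974616-51002970, minus strand), the citrate carrier, had 11.7 on D0, 13.4 on D2, 20.1 on D4 and 14.5 on D8, so that its D4 vs D0 ratio of 1.72-fold (log2 ratio 0.78, interval 0.70 to 0.87) stayed under the threshold. SLC25A11, the oxoglutarate carrier of the malate-aspartate shuttle, had 14.3, 13.7, 16.3 and 9.53 FPKM. SLC25A21, which carries longer oxodicarboxylates, was between 0.317 and 0.371 FPKM in the 4 libraries and was not reliably expressed.

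Among genes linked to citrate export and pyruvate entry, PC, ACACA, ME1 and FASN rose further in D4 vs D0 than SLC25A1 and SLC25A10. Their log2 ratios were 3.80, 2.85, 2.62 and 2.50. The others of the list below did not pass the 1.77 of SLC25A10: ACLY came nearest with 1.60, and IDH2 was lower (−0.39). Of 13 genes for citrate synthesis and cleavage, fatty acid synthesis and pyruvate entry, all reliably expressed, 2 were upregulated in D2 vs D0, 7 in D4 vs D0 and 6 in D8 vs D0, against 6.67%, 10.4% and 3.6% of the background, and none was downregulated in these comparisons. In D8 vs D4, ACACA was downregulated and none was upregulated. Their median log2 ratio was 0.30 at D2, 1.23 at D4 and 0.87 at D8, all against D0. PC, the pyruvate carboxylase that refills oxaloacetate, had FPKM of 2.17 on D0, 9.17 on D2, 30.4 on D4 and 15.4 on D8. ACACA, the acetyl-CoA carboxylase that commits carbon to fatty acids, had 7.15, 18.7, 51.7 and 24.1. FASN, the fatty acid synthase, had 3.04, 5.11, 17.2 and 17.7, and ME1, the cytosolic malic enzyme that makes NADPH, had 4.23, 7.30, 26.0 and 33.4. PC and ACACA, like SLC25A10 and SLC25A1, were highest at D4, whereas ME1 was highest at D8 and FASN was at D8 within counting error of D4 (log2 ratio 0.04, interval −0.01 to 0.08).

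Amino acid carriers held 3 of the 4 genes called downregulated in D8 vs D4. These were 3 of the 7 reliably expressed amino acid carriers, where 10.1% of the background was downregulated. Of the 7, 2 were higher at D8 than at D4, SLC25A13 (log2 ratio 0.90) and SLC25A12 (0.03, interval −0.08 to 0.13). SLC25A22 (chr2:491288-498773, minus strand), a glutamate carrier, had FPKM of 1.35 on D0, 2.26 on D2, 3.04 on D4 and 0.929 on D8. It was upregulated 2.25-fold in D4 vs D0 (log2 ratio 1.17, interval 0.95 to 1.41) and downregulated 3.25-fold in D8 vs D4 (log2 ratio −1.70, interval −2.01 to −1.42), on at least 116 reads in each library. SLC25A44 (chr4:93837004-93857154, minus strand), the carrier of branched-chain amino acids, had 2.59, 3.96, 5.0 and 2.34 FPKM and was downregulated 2.13-fold in D8 vs D4 (log2 ratio −1.09, interval −1.25 to −0.94). SLC25A29 (chr7:121178211-121192369, minus strand), which carries basic amino acids, was at 2.83, 2.58 and 3.08 FPKM up to D4 and at 1.33 at D8. It was downregulated 2.31-fold in D8 vs D4 (log2 ratio −1.21, interval −1.35 to −1.08) and 2.13-fold in D8 vs D0 (log2 ratio −1.09, interval −1.23 to −0.96). With median-ratio scaling, which takes out the lower median of all genes at D8, SLC25A29 and SLC25A44 fell just short of 2-fold in D8 vs D4, with log2 ratios of −0.998 and −0.882. In D8 vs D0, SLC25A29 was short of 2-fold with median-ratio scaling (−0.93), with scaling to protein-coding reads (−0.98) and with a pseudocount of 1 (−0.72). With that pseudocount SLC25A22 was short of it in D4 vs D0 (0.79), and SLC25A29 (−0.81) and SLC25A44 (−0.85) in D8 vs D4.

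The remaining amino acid carriers stayed under 2-fold. SLC25A15, the ornithine carrier of the urea cycle, had FPKM of 1.65 on D0, 2.53 on D2, 2.81 on D4 and 1.57 on D8. SLC25A38, which brings glycine to heme synthesis, had 3.77, 6.34, 5.12 and 3.37 and was highest at D2. The aspartate-glutamate carriers SLC25A12 and SLC25A13, which complete the malate-aspartate shuttle, had the opposite shape. SLC25A12 was at 8.64 on D0, 4.87 on D2, 6.87 on D4 and 6.99 on D8, and SLC25A13 at 7.84, 4.67, 4.47 and 8.35. The balance of the pair shifted from 60.6% SLC25A12 at D4 to 45.6% at D8. Among the 7 enzymes of the malate-aspartate and glycerol phosphate shuttles, GPD1, the cytosolic glycerol-3-phosphate dehydrogenase, was 0.787, 5.08, 15.4 and 15.9 FPKM, and MDH1, the cytosolic malate dehydrogenase, was 114, 140, 271 and 251. Those 2 genes were upregulated in D4 vs D0 and, with GPD1L, in D8 vs D0, against 10.4% and 3.6% of the background. GPD1 was also upregulated in D2 vs D0 (log2 ratio 2.68) and D4 vs D2 (1.60), and GPD1L in D8 vs D4 (1.09). In these comparisons 6.67%, 4.24% and 4.43% of the background were upregulated. SLC25A48 had 11 to 22 reads in a library and was not reliably expressed.

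Carriers of cofactors, nucleotides and glutathione numbered 10 among the reliably expressed, and 2 were upregulated in D4 vs D0, where 10.4% of the background was. SLC25A39 (chr12:18913261-18919761, plus strand), the mitochondrial glutathione carrier, had FPKM of 9.14 on D0, 13.5 on D2, 19.7 on D4 and 9.89 on D8, 2.15-fold up in D4 vs D0 (log2 ratio 1.10, interval 1.01 to 1.21). Its log2 ratio of −0.99 in D8 vs D4 (interval −1.10 to −0.88) was just short of 2-fold. The paralog SLC25A40 ran through the same order of stages on a smaller scale, with 2.26, 3.04, 3.28 and 2.42. SLC25A33 (chr6:69934810-69969091, plus strand), a pyrimidine nucleotide carrier, had 6.57 on D0, 7.61 on D2, 14.5 on D4 and 11.2 on D8, 2.20-fold up in D4 vs D0 (log2 ratio 1.14, interval 1.03 to 1.25), with most of the difference between D2 and D4. SLC25A36, the other pyrimidine nucleotide carrier, had 21.0, 34.5, 30.4 and 29.3, with its largest difference between D0 and D2 (log2 ratio 0.72, interval 0.68 to 0.76). SLC25A33 made up 18.1% of the pair at D2 and 32.2% at D4.

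Several cofactor carriers varied little. SLC25A51, which imports NAD, had FPKM of 17.9 to 19.9, and SLC25A16, linked to coenzyme A, 13.5 to 16.3. In SLC25A51 the ratio of the highest to the lowest library was 1.11. SLC25A32, a folate carrier, lay between 7.43 and 9.0. SLC25A26, which imports S-adenosylmethionine, was lowest at D4, with 4.30, 4.46, 2.92 and 3.96. SLC25A17, the peroxisomal carrier, had the highest level of this group, with 46.8 on D0, 53.8 on D2, 75.7 on D4 and 60.3 on D8, 1.62-fold higher at D4 than at D0 (log2 ratio 0.69, interval 0.65 to 0.74). SLC25A42 was between 0.369 and 0.602 FPKM and was not reliably expressed.

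**Figure D4:**
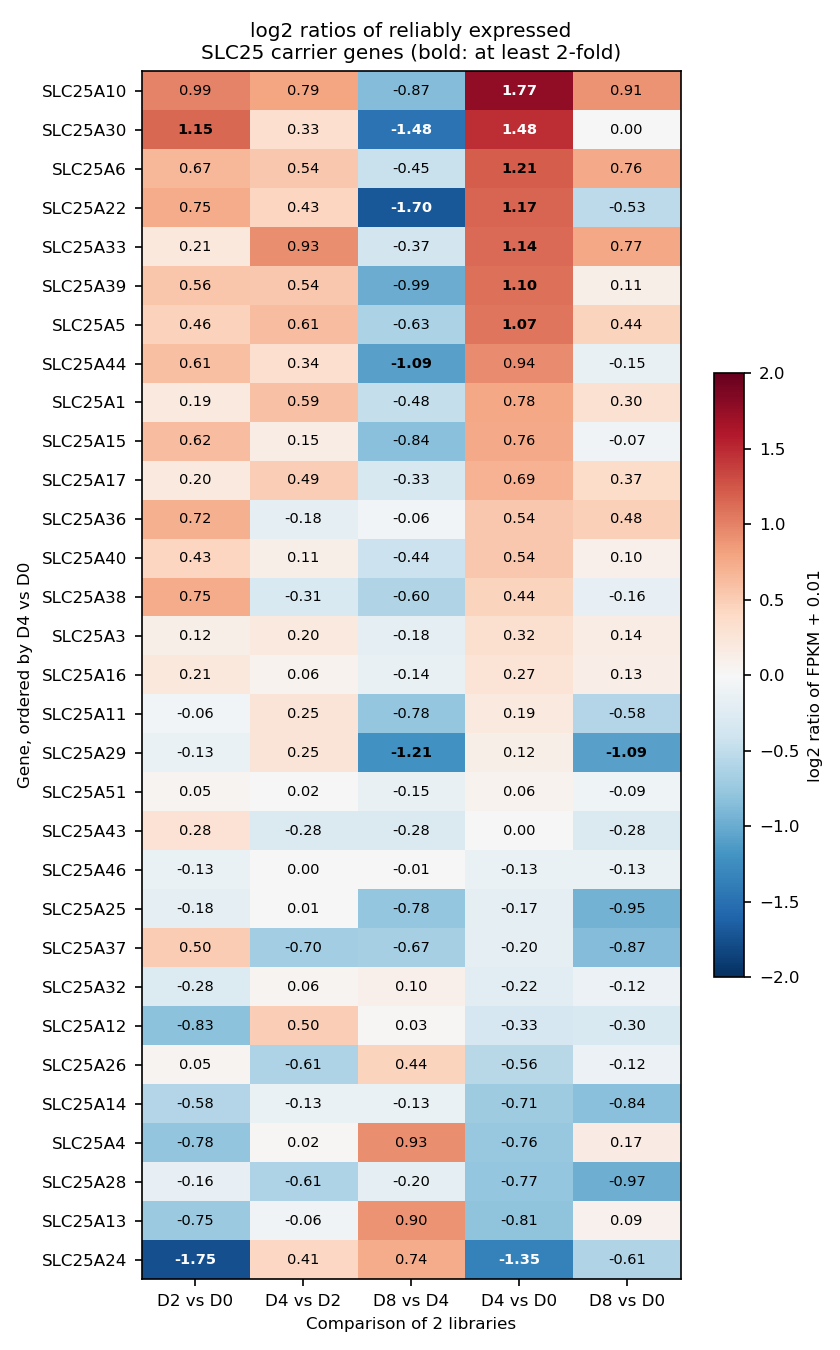
log2 ratio of FPKM + 0.01 of 31 of the 32 reliably expressed carriers (rows, ordered by D4 vs D0) in the 5 comparisons (columns), red higher and blue lower in the later library, with ratios of at least 2-fold in bold. The upper rows are red in D2 vs D0 and D4 vs D0 and blue in D8 vs D4, and SLC25A24 at the bottom has −1.75 and −1.35 against D0.

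On the deposited scale the iron carriers were lowest at D8, as were 40.6% of the 32 reliably expressed carriers and 37.5% of the background. For SLC25A28 this depended on the scaling: its D8 vs D4 log2 ratio of −0.20 was smaller than the 0.21 by which median-ratio scaling raised it. SLC25A28 and SLC25A37, the mitoferrins that bring iron to heme and iron-sulfur cluster synthesis, had no ratio of 2-fold in the 5 comparisons. SLC25A28 had FPKM of 12.4 on D0, 11.1 on D2, 7.26 on D4 and 6.33 on D8, with a log2 ratio of −0.97 in D8 vs D0 (interval −1.12 to −0.83). SLC25A37 had 2.21, 3.14, 1.93 and 1.21. Of 9 reliably expressed genes of mitochondrial iron use, 7 were higher in D2 vs D0, 7 in D4 vs D0 and 1 in D8 vs D4. The background shares were 48.0%, 53.8% and 35.1%. The gene called among them was FECH, the ferrochelatase that inserts iron into heme, with 9.66, 17.4, 22.4 and 10.3 FPKM. It was upregulated in D4 vs D0, as was 10.4% of the background, and downregulated in D8 vs D4, as was 10.1%. HBB, the erythroid marker measured, was at 0 at D0, D2 and D8 and at 0.271 FPKM at D4.

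SLC25A30 was the carrier upregulated in D2 vs D0. It belongs to the carriers closest in sequence to the uncoupling proteins (chr11:21848242-21872781, minus strand) and had FPKM of 1.83 on D0, 4.06 on D2, 5.12 on D4 and 1.83 on D8. It was upregulated 2.22-fold in D2 vs D0 (log2 ratio 1.15, interval 1.01 to 1.30) and 2.79-fold in D4 vs D0 (log2 ratio 1.48, interval 1.36 to 1.62), then downregulated 2.78-fold in D8 vs D4 (log2 ratio −1.48, interval −1.63 to −1.33). In D8 vs D0 its log2 ratio was 0.00 (interval −0.17 to 0.18). The D2 vs D0 call was lost with a pseudocount of 1 (log2 ratio 0.84), and with either other scaling SLC25A10 was called in that comparison too. Its relative SLC25A14 was lower at each later stage on the deposited scale, with 3.51, 2.34, 2.15 and 1.96. SLC25A27 stayed between 0.500 and 0.933 FPKM. UCP2 was at 0 at D0, D2 and D8, and UCP3 at 0 at D0 and D8, each at or under 0.114 FPKM where above 0.

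Of the carriers with other or unknown substrates, SLC25A46, which acts in the dynamics of the outer membrane, was the steadiest of the reliably expressed carriers: FPKM was 13.8 at D0 and 12.6 to 12.7 later, a ratio of the highest to the lowest library of 1.10. SLC25A43 was between 1.02 and 1.52. The orphan carrier SLC25A34 (chr6:74909637-74914430, plus strand) was below the filter but had the widest range, with FPKM of 0.104 on D0, 0.978 on D2, 1.39 on D4 and 0.762 on D8, from 20, 137, 263 and 105 reads. Its D4 level was 13.3 times that of D0 (log2 ratio of the FPKM themselves 3.74, interval 3.08 to 4.47). It is described because of these values, not by the rule that chose the other names. SLC25A35, SLC25A45, SLC25A47 and SLC25A53 stayed at or under 0.292 FPKM. SLC25A35 had 0 reads at D0, which allows up to 0.0192 FPKM by the limit of 3 counts, and 10, 13 and 10 reads later. SLC25A45 had 0 reads on D0, 1 on D2, 1 on D4 and 8 on D8.

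Gene lists for the surroundings of the carriers moved in different ways. None of 15 ATP synthase subunits, 14 reliably expressed genes for the import of carrier precursors and 8 reliably expressed factors of mitochondrial biogenesis was called in any comparison. Of the background, 29.9% was called in at least 1. The other 2 biogenesis factors were below the filter and varied more: PPARGC1A, the coactivator that drives mitochondrial biogenesis, had FPKM of 0.0403, 0.357, 0.355 and 0.0605, and its relative PPARGC1B had 0.311, 0.795, 1.24 and 0.297, both higher at D2 and D4 than at D0 and D8. The ATP synthase medians were −0.04, 0.11 and 0.05 on the log2 scale in D2, D4 and D8 vs D0, beside 0.12, 0.32 and 0.14 for the phosphate carrier SLC25A3. In 14 other mitochondrial transporters, SFXN3, of the sideroflexin transporters, fell in all 3 comparisons with D0, with FPKM of 14.3, 3.29, 5.38 and 7.11, and MCU, the pore of the calcium uniporter, fell in D2 vs D0, with 10.01, 4.60, 5.80 and 6.94. MTCH1, a carrier-type protein of the outer membrane under another symbol, had 44.0, 21.1, 20.4 and 26.3 and fell in D2 vs D0 and D4 vs D0. In 6 one-carbon enzymes MTHFD2, the mitochondrial methylenetetrahydrofolate dehydrogenase, had 29.0, 13.7, 10.2 and 25.8, beside a folate carrier SLC25A32 that kept to a range of 1.21-fold. SFXN3, MCU, MTCH1 and MTHFD2, named because they were past 2-fold against D0, shared the low D2 and D4 of SLC25A24 and SLC25A4. That shape was found in 24.2% of the background. Downregulated shares of the background were 10.1% in D2 vs D0, 8.81% in D4 vs D0 and 3.68% in D8 vs D0.

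**Figure D5:**
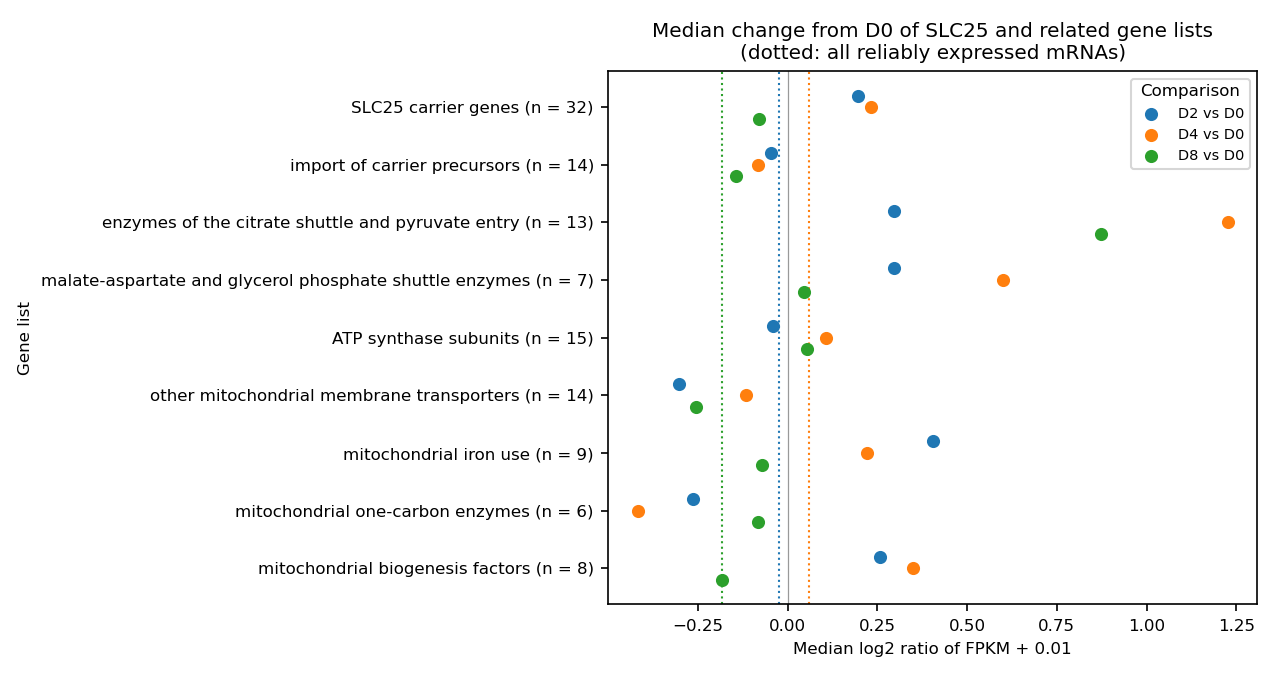
Median log2 ratio against D0 (points, blue D2, orange D4, green D8) of the SLC25 carriers and 8 related gene lists, with the reliably expressed genes in parentheses and the background medians as dotted lines. The citrate shuttle list reaches 1.23 at D4 and 0.87 at D8, the carriers 0.23 and −0.08.

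Circular RNAs came from 9 of the carrier genes. They numbered 15 of the 8623 circular RNAs measured, 5 of them reliably expressed, and held 271 back-splice junction reads on D0, 228 on D2, 227 on D4 and 162 on D8, which is 0.509%, 0.518%, 0.444% and 0.432% of all such reads. Most came from SLC25A3, whose main circle (ssc_circ_0002871, chr5:85285642-85286475, minus strand) had 231, 151, 165 and 126 reads. In SRPBM, junction reads scaled by the mapped reads, it was 1482 on D0, 1097 on D2, 980 on D4 and 1058 on D8, highest at D0, where the mRNA of SLC25A3 was lowest. A second SLC25A3 circle with the same start had 10, 28, 14 and 12 reads. The 2 circles of SLC25A26 had 18, 20 and 22 reads together up to D4 and 0 at D8, and those of SLC25A16 had 0 at D0 and 17, 7 and 8 later. Of the 15, 7 were found in 1 stage only, on 2 to 6 reads each, numbers at which presence and absence are not separated by depth.

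On the map of Sscrofa11.1, 42 of the 43 genes lay on named chromosomes and 3 pairs were close together. Besides SLC25A23 and SLC25A41, SLC25A29 and SLC25A47 were 11843 bases apart on chromosome 7, and SLC25A43 and SLC25A5 were 12523 bases apart on the X chromosome. The levels within each pair were far apart, as with SLC25A5 at 49.0 to 103 FPKM and SLC25A43 at 1.02 to 1.52. An antisense transcript assembled by the authors, MSTRG.124829, covered the whole of SLC25A16 and had 2.73 FPKM at D0 and 0.760, 0.862 and 1.08 later, while SLC25A16 itself was at 13.5, 15.6, 16.3 and 14.7. The library kit keeps strand, and the strand setting of the counting is not given in the sources used here. On the same strand, 1 carrier, SLC25A53, overlapped another gene, TMSB15B, and its low value is uncertain for that reason.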

How the data were processed

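Ribosome-depleted total RNA of 4 stages was sequenced from strand-specific libraries, 1 pooled library per stage. The authors aligned reads with HISAT2 2.0.5 and deposited FPKM per gene, and they called circular RNAs from BWA alignments and deposited SRPBM, junction reads scaled by the mapped reads. Read numbers were recovered from the FPKM values: the library totals came from short genes without introns, and each gene got the shortest length in whole bases that made its 4 values whole reads, found for 22944 of 22944 genes (tested on simulated data). These are the smallest read numbers that fit, so where the true number is a multiple an interval is too wide. Ratios were of FPKM + 0.01, with exact conditional 95% intervals for 2 libraries (Python 3.11.15, scipy 1.17.1). With 1 library per stage no test was run.

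The carriers and gene lists were chosen with earlier results of these data known. Values in every library were to be given for carriers past 2-fold, the 6 with the highest mean FPKM, the ADP/ATP carriers and close paralogs of these, and for up to 4 genes past 2-fold against D0 per related list. Values of other carriers were added after they were seen. Of the genes matching the symbol rule, 1 was left out and 1 enters counts and medians only, and neither is reported here. Positions of all 43 genes equal those of RefSeq on Sscrofa11.1. Alternatives were other pseudocounts, filters, fold thresholds and scalings.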

Additional observations from a re-analysis of the deposited data

How the results depend on the processing

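Counts of carriers past 2-fold and their medians were recomputed with a pseudocount of 0.1 or 1, without the filter, with a filter in all 4 libraries, at 1.5-fold, and with 2 other scalings. A pseudocount of 0.1 changed no count. With a pseudocount of 1 the counts were 1 in D2 vs D0, 2 in D8 vs D4, 7 in D4 vs D0 and 0 in D8 vs D0, where they had been 2, 4, 8 and 1, since it shrinks ratios of low genes such as SLC25A22, SLC25A29, SLC25A30 and SLC25A44. Without the filter the counts were 5, 7, 11 and 5 in the same order, now with carriers under 1 FPKM. At 1.5-fold they were 12 in D2 vs D0, 7 in D4 vs D2, 15 in D8 vs D4, 16 in D4 vs D0 and 9 in D8 vs D0.

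Scaling to the reads of protein-coding genes, 70.9% to 78.8% of the libraries, moved the median log2 ratio in D2 vs D0 from 0.19 to 0.35. Median-ratio scaling moved it from −0.35 to −0.14 in D8 vs D4 and from −0.08 to 0.076 in D8 vs D0. The split of calls in D8 vs D4 went from 0 up and 4 down to 2 up (SLC25A4 and SLC25A13) and 2 down (SLC25A22 and SLC25A30) under median-ratio scaling. In D2 vs D0 it went from 1 up and 1 down to 2 up (SLC25A10 with SLC25A30) and 1 down under both scalings. In D8 vs D0 it went from 0 up and 1 down to 1 up (SLC25A10) and 0 down under both scalings. SLC25A22 left the calls when FPKM of at least 1 was required in all 4 libraries, since it had 0.929 at D8. No ratio past 2-fold could change sign under the 2 pseudocounts or the 2 scalings. A larger pseudocount only shrinks a ratio, and the scalings shifted log2 ratios by at most 0.21. Smaller ratios could: SLC25A29 in D2 vs D0 went from −0.13 to 0.02 with scaling to the reads of protein-coding genes.

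No paired analysis was possible because each stage is 1 pooled library. Leaving out a replicate could not be done for the same reason. Carriers near the threshold, such as SLC25A10 in D2 vs D0 and SLC25A39 in D8 vs D4, cannot be placed on either side of it from 1 library, and depth limits the carriers under 1 FPKM, where the median value rested on 40 reads.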
